A study of Larimichthys crocea with 2 samples.

Results

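The data described here were stretches of the large yellow croaker (Larimichthys crocea) genome from which muscle RNA was assembled, which lie outside the annotated genes, and which only 1 of the 2 sequenced libraries listed. The files gave 4048 such unannotated regions for the control library and 4498 for the fasted library, 8546 in all. A region counted as listed in 1 library only when no base of it, on either strand, lay in any region of the other library's list on the same scaffold. By that rule 1166 of the 4048 control regions (28.8%) and 1608 of the 4498 fasted regions (35.7%) were listed in 1 library only, 2774 regions together. The other 2882 control and 2890 fasted regions met the other list and are called shared. The members were chosen by which library's list held them, and the sizes of the sets and every value below describe 2 libraries and carry no test.

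Unannotated regions arise when aligned reads are assembled into transcript models without being held to known genes. A model that falls between annotated genes can be a missing exon or end of a neighbouring gene, a gene that the annotation lacks, a transcript that codes for no protein, or stray signal. In striated muscle the giant spring protein titin, the filament proteins actin and myosin, and the pumps and enzymes of contraction are the characteristic products, and fasting is known to move muscle from building protein towards breaking it down.

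The control library came from fish with no treatment and the fasted library from fish fasted for 21 days, with 1 library in each group. How many fish went into a library, their age, and which muscle was taken are not known from the sources used here. Gene reads totalled 27519918 for the control and 26593839 for the fasted library. RPKM, reads scaled by gene length and library size, summed to 115772 in the control against 55236 in the fasted library for the genes named skeletal alpha-actin, and to 58949 and 59656 for M-type creatine kinase. Fast skeletal myosin heavy chain summed to 30169 and 66249 RPKM and parvalbumin to 211615 and 45107 RPKM. Fast troponin I summed to 11728 and 4039 RPKM and fast troponin T to 19700 and 11164 RPKM. Both libraries thus carried the labelled tissue's markers, which did not all differ in the same direction. Hemoglobin genes summed to 568 and 44.7 RPKM and keratins to 1885 and 434.4 RPKM. Of the fat-cell genes, CIDE-3 summed to 66.1 and 0.262 RPKM, adiponectin was listed at 0 in both, and no gene was named perilipin-1. The part of blood, skin and fat cells in the region lists was not tested.

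The fasted library held more regions of its own than the control library, both in number and as a share of its list. With 95% Wilson intervals, which cover counting error only, the share was 27.4% to 30.2% in the control list and 34.4% to 37.2% in the fasted list. Some positions were listed more than once, as exons of several transcript models, so the control-only set had 1133 distinct positions and the fasted-only set 1560. Joined where they overlapped, they covered 604525 and 781183 bases, against 1740230 bases of shared regions in the control list and 1794175 in the fasted list. The control-only regions were spread over 574 scaffolds and the fasted-only regions over 729. For scale, among annotated genes above 0 RPKM in the control library 7.39% were at 0 in the fasted library, and 4.83% in the other direction. The set that was larger among the unannotated regions was thus the smaller among the annotated genes, but the measures are unlike. A gene drops out only at 0 RPKM, whereas a region drops out when the other library lists no model there.

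Most members lay well clear of the other list. A gap of at most 100 bases separated 50 control-only and 61 fasted-only regions from the nearest region of the other list, and a gap of at most 1000 bases separated 198 (17.0%) and 280 (17.4%). The scaffold had no region at all in the other list for 255 control-only (21.9%) and 426 fasted-only regions (26.5%). Just inside the rule, a control-only exon of 26 bases near the initiation factor eIF2A touched a fasted region without sharing a base and another lay 10 bases away, while fasted-only regions lay as close as 6 and 12 bases. The least overlaps of shared regions with the other list were 8 and 9 bases. Each covered the full length of an exon that short in 1 list or the other. For a control exon of 47 bases, the 8 shared bases were only a part.

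Titin gave the largest cluster of either set. On scaffold NW_011323343.1 the control library listed 35 exons matched to a titin-like protein, at 20 distinct positions between bases 116541 and 130032 on the plus strand, and the fasted library listed none. Positions are on scaffolds of a genome build that the files do not name. They formed 2 chains of 16 and 19 exons, each exon between 27 and 2199 bases long, and covered 5518 bases in 19 separate stretches. The nearest annotated gene was Titin itself (gene17154, bases 62009 to 91744, plus strand), which ended 24796 bases before the cluster. The cluster therefore ran in the same direction as the gene and beyond its annotated end.

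The authors' levels were given for the ends of this transcript. FPKM, fragments scaled in the same way, was 4.10 at the first exon of the cluster, 4.69 at its last exon and 2.32 at an alternative start. The annotated Titin gene stood at 40.7 RPKM (18609 reads) in the control against 52.1 RPKM (22995 reads) in the fasted library, a centred log2 ratio of −0.13. The titin-like exons past the gene were thus listed in the control alone, while the gene itself differed by less than 2-fold between the libraries. The fasted library had 0 regions and 0 transcript end exons over the cluster, although it listed 30 regions elsewhere on the scaffold, 4 of them beyond the cluster. The same scaffold carried 50 control-only regions in all, and upstream of Titin both libraries listed exons matched to CCDC141-like protein, whose human counterpart lies beside titin.

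**Figure D1:**
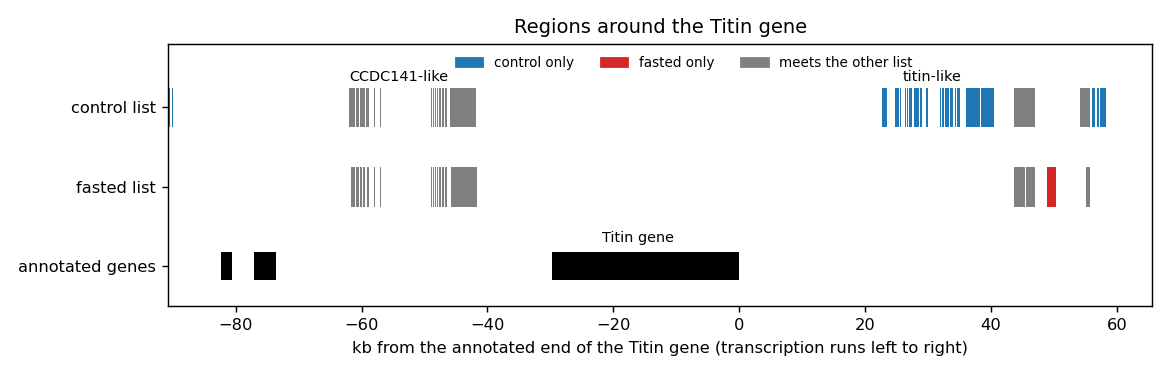
Unannotated regions of the control list (top) and the fasted list (middle) and annotated genes (bottom) around Titin, by distance in kb from the annotated end of the gene, with each bar a region drawn to scale or at a minimum width of 150 bases. The 35 titin-like exons listed by the control library begin 24796 bases past the gene and have no counterpart in the fasted list, while the CCDC141-like exons upstream appear in both.

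A protein match was less frequent in both sets than among shared regions, though the control-only interval takes in the shared control share. The files gave a match for 88 of 1166 control-only regions (7.55%, interval 6.17% to 9.21%) and for 70 of 1608 fasted-only regions (4.35%, 3.46% to 5.46%), against 9.02% of shared control and 10.4% of shared fasted regions. The higher share of the control-only set rested on the titin cluster: with the titin-like exons left out, an alternative chosen after seeing the data, 53 of 1131 remained (4.69%). The shared shares were not trimmed in that way. They kept 45 control and 26 fasted listings of CCDC141-like and 20 and 60 of the helicase DDX31-like. The matches went to 32 proteins in the control-only and 42 in the fasted-only set, and 1 protein, nesprin-2-like, which links the nucleus to the actin skeleton, was matched in both. No region of the fasted list matched 28 of the 32, and no region of the control list matched 36 of the 42. Both lists together matched 188 proteins. Members were chosen for having no overlap with the other list, so these counts follow largely from the rule. They show no difference in protein content between the libraries.

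Matched regions often lay beside an annotated gene of the same name. In the control-only set 57 of 88 matched regions (64.8%) had a nearest gene with the same protein name, and in the fasted-only set 28 of the 66 that had a gene on their scaffold (42.4%). Among shared regions the figures were 25.4% in the control and 19.8% in the fasted list. Counted by listing, matched regions that only 1 library listed thus lay beside their namesake more often than shared ones did, with the titin exons making up 35 of the 57. Without the titin exons the control-only figure was 22 of 53 (41.5%). The shared figures kept their repeated listings of CCDC141-like and DDX31-like and were not recomputed without them, so the size of the contrast depends on a few proteins with many exons.

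Proteins of the contractile filaments and their anchors were matched by 36 control-only and 2 fasted-only regions, of which titin made up 35. Outside titin these were nesprin-2-like in both sets and, among fasted-only regions, calponin-1-like, an actin-binding protein of smooth muscle, over 1949 bases. Energy and calcium supply were matched by 4 control-only regions, 3 for a creatine transporter, which brings creatine into muscle cells, and 1 for creatine kinase B-type, and by 1 fasted-only region for the calcium pump SERCA2, which refills the calcium store. The 3 creatine transporter regions covered 1079 bases on scaffold NW_011323628.1 from 406 bases upstream of the annotated transporter gene, which stood at 6.88 RPKM in the control against 1.29 RPKM in the fasted library.

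Transcription and chromatin proteins were matched by 15 control-only regions from 9 proteins and by 5 fasted-only regions from 5 proteins. The control-only ones included 4 exons for mastermind-like 1, a Notch co-activator, which began 1118 bases downstream of the annotated mastermind-like 1 gene and totalled 997 bases. They also included the circadian activator CLOCK, the nuclear receptor ERR-gamma and the DNA demethylase TET3-like. The fasted-only ones included histone deacetylase 4-like, a repressor of muscle genes, and hepatic leukemia factor-like, each at 1 region.

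Signalling proteins were matched by 11 control-only and 9 fasted-only regions. In the control-only set 4 short exons matched rho GTPase-activating protein 27, with the annotated neighbour presenilin-2 only 278 bases away, and in the fasted-only set 3 regions covering 3434 bases matched apelin-like, a secreted peptide. All 3 apelin-like regions overlapped a control transcript, with an end exon at 10.5 FPKM over the longest, and their unnamed neighbour stood at 8.85 and 2.25 RPKM. The control-only set also had 6 exons for a small conductance calcium-activated potassium channel spread over 37219 bases. Each set held 1 region for a stanniocalcin, a family of hormones whose founding member lowers blood calcium in fish.

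Matrix and immune proteins were matched by fasted-only regions and by no control-only region. Collagen alpha-1(XXV), a membrane collagen, was matched by 6 short exons of 33 to 63 bases on scaffold NW_011322460.1, which began 2203 bases downstream of the annotated gene of that name. All 6 exons overlapped the span of a transcript assembled in the control library, and the annotated gene stood at 3.30 RPKM in the control against 1.09 RPKM in the fasted library. CD276 antigen-like, an immune checkpoint protein, was matched by 4 listed exons at 2 positions on a scaffold with no annotated gene, and a further 8 listed CD276-like regions were shared. Outside these groups, Fas-binding factor 1 was matched by 4 fasted-only exons that began 95 bases downstream of the annotated gene of that name. They reached 5.04 FPKM and lay on a scaffold absent from the control list.

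The ubiquitin ligases that tag proteins for breakdown were matched in each set but by different proteins: WWP2-like by 2 control-only regions, and ZNRF1-like by 2 and TRIM71-like by 1 fasted-only region. Protein synthesis was matched by 1 control-only region for the polyadenylation factor CPEB4 and by 3 fasted-only listings of 1 position for the helicase DDX31. Uncharacterized proteins took 8 control-only and 17 fasted-only matches. Of transposons, 1 control-only region matched the transposase-derived nuclease HARBI1, and no fasted-only region matched any.

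Regions of both sets were short. Their median length was 429 bases in the control-only set (95% interval 398 to 460, from order statistics) and 399 bases in the fasted-only set (374 to 422), close to the 430.5 and 440 bases of shared regions. Long regions were scarcer: 85.5% of control-only and 89.0% of fasted-only regions were under 1000 bases, against 79.9% and 78.4% of shared ones. The quartiles were 160 and 764.8 bases in the control-only and 170.8 and 681.5 bases in the fasted-only set.

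A strand was given for 510 control-only regions (43.7%) and 618 fasted-only regions (38.4%), below the 48.3% and 49.0% of shared regions. Every region without a strand was a lone exon of at least 100 bases, whereas the 311 control-only and 376 fasted-only regions with an exon number above 1 all had a strand. The difference in length lay in the regions without a strand, whose median was 592.5 bases in the control-only and 538.5 bases in the fasted-only set, against 733.5 and 789 bases in the shared sets. With a strand the medians were 139.5 and 134 bases, and 150 and 147 bases in the shared sets.

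**Figure D2:**
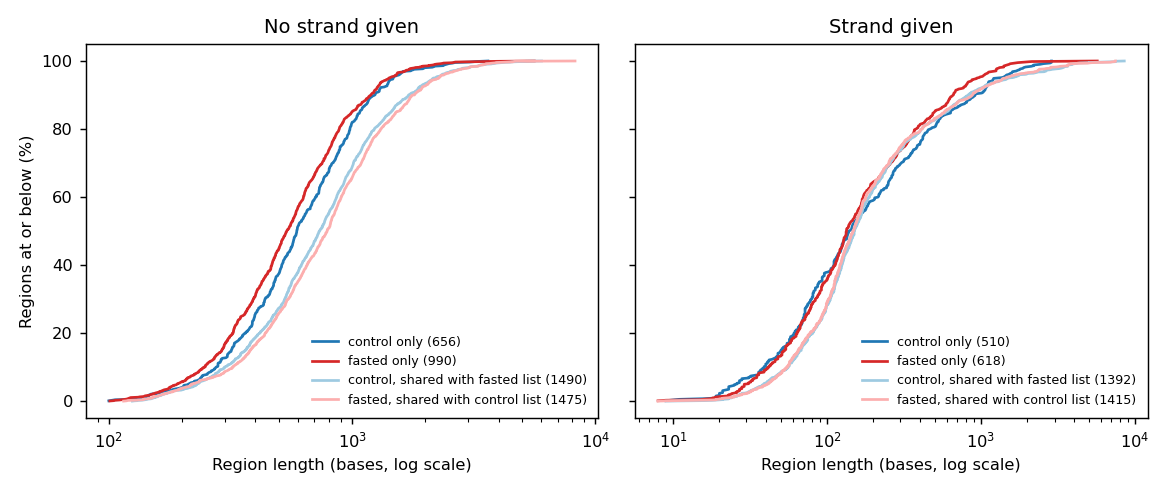
Cumulative share of regions (%) by length in bases on a log axis, for regions without a strand (left) and with a strand (right), with 1 line per set and the number of regions in brackets. Without a strand both sets listed in 1 library lie to the left of the shared sets, with medians of 592.5 and 538.5 bases against 733.5 and 789; with a strand the 4 lines run close together.

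Most of the longest members were lone exons without a strand. In the control-only set the longest region had 3617 bases (scaffold NW_011323036.1, bases 73283 to 76899) and began 2004 bases downstream of TNRC6C, a partner of the microRNA machinery, at 4.62 RPKM in the control against 6.06 RPKM in the fasted library. Another control-only region had 3053 bases and lay near junctophilin-1, which ties the calcium store to the muscle membrane. The fasted library had assembled transcripts over the places of the TNRC6C and junctophilin-1 regions, with end exons at 8.02 and 57.3 FPKM, without listing a region there.

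The fasted-only set held longer examples. Its longest region had 5689 bases (scaffold NW_011322559.1, bases 67740 to 73428) and lay 4892 bases upstream of the potassium channel gene KCNA3, which had 278 reads (6.34 RPKM) in the control against 1572 reads (37.1 RPKM) in the fasted library. A region of 5613 bases lay 2327 bases upstream of ADP/ATP translocase 2, the mitochondrial exporter of ATP, at 134.8 and 111.0 RPKM, and a region of 3925 bases lay 2840 bases downstream of the splicing factor SFPQ, at 34.7 and 52.0 RPKM. Transcripts named sfpq ran over the latter region in both libraries. The channel gene was past 2-fold higher in the library that listed the region, with a centred log2 ratio of 1.98, and the other neighbours were within 2-fold, at −0.76 and 0.10. The next in length, of 3155 bases, lay by the scaffold protein SH3PXD2A, which was lower in the fasted library, at 3.68 and 1.78 RPKM and a ratio of −1.36.

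Dense clusters other than titin were smaller. In the control-only set, scaffold NW_011322459.1 carried 12 listed exons at 6 positions between bases 421043 and 427115, upstream of a gene for Xin, an actin-binding protein of striated muscle, with the nearest exon at 260 bases. All 12 overlapped a fasted transcript that carried an annotated gene's name and spanned bases 418895 to 427074. The Xin gene stood at 55.96 RPKM in the control against 144.2 RPKM in the fasted library, and the end exon over these positions at 18.4 FPKM in the control against 28.4 FPKM in the fasted library. Where the control library listed unannotated exons, the fasted library had thus assembled a transcript with an annotated gene's name.

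The other dense control-only stretches were 10 listed exons near a potassium channel gene listed at 0 in both libraries and 8 near the signalling regulator RGS20, at 0.0546 and 0.0565 RPKM.

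The densest fasted-only clusters were 17 listed exons at 10 positions within 2848 bases near the vesicle protein Rab-34, 16 near a secretory phospholipase A2, 14 near the centrosome protein CEP164 and 11 near nesprin-2. Their neighbours were low in both libraries. Rab-34 stood at 0.0498 RPKM in the control against 0.103 RPKM in the fasted library, the phospholipase was listed at 0 in both, and the last pair stood at 0.980 and 1.57 RPKM and at 0.983 and 0.981 RPKM. The exons themselves reached 5.21, 1.64, 2.59 and 3.51 FPKM in the fasted library.

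Members lay closer to annotated genes than shared regions did. The median distance to the nearest gene was 2803 bases for control-only (interval 2675 to 3038) and 2661 bases for fasted-only regions (2560 to 2805), against 3617 and 3700 bases for shared regions. Within 1000 bases of a gene lay 155 control-only (13.9%) and 228 fasted-only regions (15.3%), more than the 6.01% and 5.84% of shared regions. No gene was annotated on the scaffold for 51 control-only regions (4.37%) and 115 fasted-only regions (7.15%).

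More than 10000 bases from any gene lay 213 control-only (19.1%) but 200 fasted-only regions (13.4%), and the shared regions were at 19.9% and 18.9%. Without the regions nearest to Titin, 165 of 1067 control-only regions (15.5%, interval 13.4% to 17.8%) lay that far, which meets the fasted-only interval of 11.8% to 15.2%. Downstream of the nearest gene lay 700 control-only regions (62.8%) and 857 fasted-only regions (57.4%), the former near the 62.6% and 63.6% of shared regions and the latter below. Of regions with a strand, 330 of 489 control-only (67.5%) and 334 of 569 fasted-only ones (58.7%) ran in the same direction as the nearest gene, and the control-only share was 64.1% without the regions nearest to Titin. Among shared regions, not trimmed in that way, the share was 61.7% in the control and 60.3% in the fasted list. The interval of the trimmed control-only share, 59.5% to 68.4%, and the fasted-only interval, 54.6% to 62.7%, took in these values.

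Distances rose in a step at 2000 bases. Among regions without a strand, 4 control-only regions lay 1900 to 1999 bases from a gene and 58 lay 2000 to 2099 bases away, and the fasted-only counts were 5 and 65. The step was not particular to the members. Shared regions without a strand numbered 7 and 70 in the control list and 8 and 68 in the fasted list. Among regions with a strand the counts were 7 and 10 in the control-only and 8 and 10 in the fasted-only set. No step in the sources used here names such a limit, so the cause was not tested. Under 2000 bases lay 16.1% of control-only and 17.5% of fasted-only regions without a strand, against 9.98% and 9.71% of the shared ones, so the members were the nearer on that side of the step too.

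**Figure D3:**
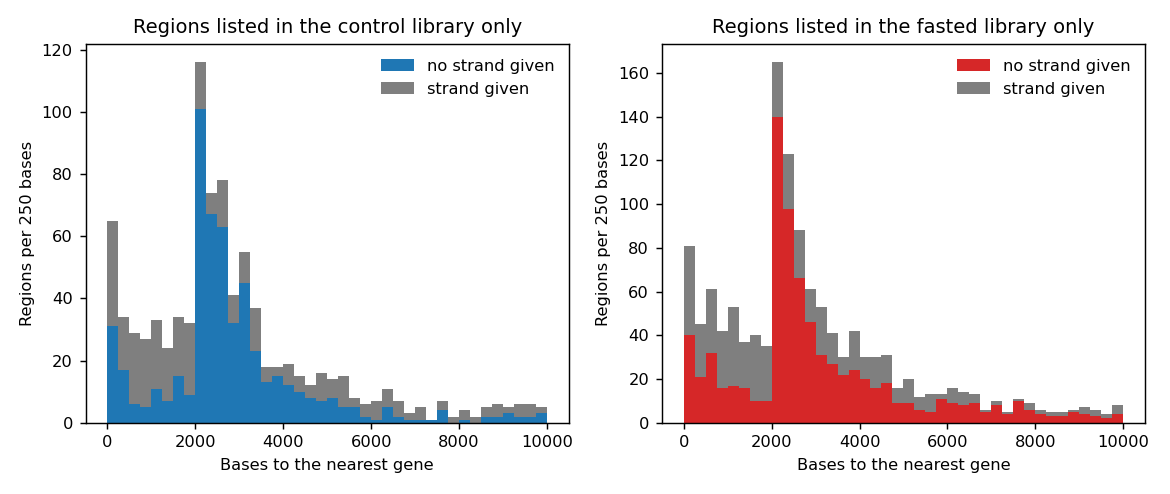
Number of regions per 250 bases of distance to the nearest gene, up to 10000 bases, for control-only (left) and fasted-only regions (right), stacked by whether a strand was given; the vertical scales differ. Regions without a strand pile up just past 2000 bases, with 58 and 65 of them at 2000 to 2099 bases against 4 and 5 at 1900 to 1999, and regions with a strand do not. Shared regions without a strand, not drawn here, had the same step.

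The annotated neighbours of control-only regions were lower in the fasted library more often than those of fasted-only regions. For each gene the ratio divided fasted by control RPKM, with 0.5 RPKM added to each, on the log2 scale and centred on the median of 0.48 over the 11417 genes averaging at least 1 RPKM, and each neighbour counted once per set. The control-only regions had 746 distinct nearest genes, of which 510 passed that level, and the fasted-only regions had 943, of which 684 passed. Of 22321 genes in all, 92 were nearest to members of both sets (12.3% of the control-only and 9.76% of the fasted-only neighbours). Whether that overlap is small or large for sets of these sizes was not tested. Gene levels came from the same 2 libraries whose lists chose the regions, so the ratios below give no separate support. In bulk tissue, fewer cells of a type and less RNA per cell cannot be told apart.

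Of the 510 control-only neighbours, 137 (26.9%, interval 23.2% to 30.9%) were at least 2-fold lower in the fasted library, where 16.6% of all genes were, and 49 (9.61%, 7.34% to 12.5%) were at least 2-fold higher, where 16.1% were. Of the 684 fasted-only neighbours, 90 (13.2%, 10.8% to 15.9%) were lower and 110 (16.1%, 13.5% to 19.0%) were higher, the latter the same share as among all genes. The median ratio was −0.28 in the control-only and 0.03 in the fasted-only set. Neighbours of shared regions had a median of −0.20 and −0.18, with 9.52% and 9.62% higher and 17.9% and 17.5% lower.

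The control-only neighbours thus had more genes on the low side than all genes did, while the fasted-only neighbours had about the same share on the high side as all genes and a smaller share on the low side. On the scale as deposited, without centring, 97 control-only neighbours (19.0%) were higher and 72 (14.1%) lower, where 29.7% and 8.88% of all genes were. For fasted-only neighbours the figures were 201 (29.4%) and 48 (7.02%). Both sets then had more higher than lower neighbours, and the order between the sets and the distance of each from all genes remained in the same direction. Leaving out the centring moves every ratio by the same amount, so this is not a separate check.

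Close to genes the gap between the sets was wider in value, but the intervals met those of the full sets. Among genes within 1000 bases of a member, 39 of 115 control-only neighbours (33.9%) were lower and 11 (9.57%) higher, with a median of −0.46. For fasted-only regions 16 of 150 (10.7%) were lower and 29 (19.3%) higher, with a median of 0.13. The intervals of the lower share, 25.9% to 43.0% and 6.67% to 16.6%, did not meet, and those of the higher share did. The interval of each lower share met that of its full set, 23.2% to 30.9% for control-only and 10.8% to 15.9% for fasted-only neighbours. The lower shares themselves lay outside those full-set intervals. The genes within 1000 bases are part of those full sets, so a trend with distance is not shown.

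**Figure D4:**
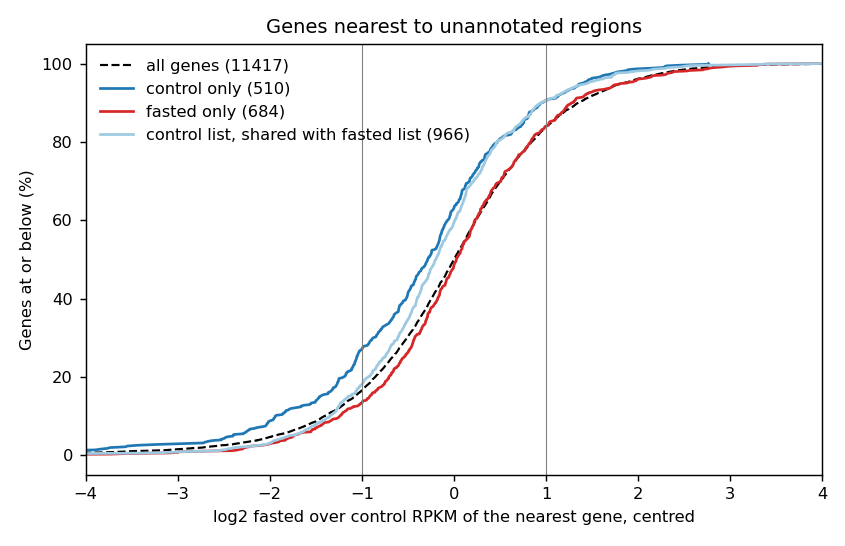
Cumulative share of genes (%) by centred log2 ratio of fasted over control RPKM, for the nearest genes of control-only regions (510), of fasted-only regions (684) and of shared control regions (966) and for all 11417 genes (dashed), with thin vertical lines at 2-fold. The control-only line lies above the others on the low side, with 26.9% of genes at or past 2-fold lower, and the fasted-only line lies below that of all genes on the low side, with 13.2% there against 16.6%.

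Looked at the other way, regions were listed in 1 library more often where the neighbour was more abundant in that library. Of control regions beside a gene at least 2-fold lower in the fasted library, 211 of 485 (43.5%) were control-only, against 506 of 1829 (27.7%) beside genes within 2-fold and 68 of 283 (24.0%) beside genes at least 2-fold higher. Of fasted regions, 132 of 411 (32.1%) beside lower genes, 735 of 2030 (36.2%) beside genes within 2-fold and 195 of 405 (48.1%) beside higher genes were fasted-only. Even beside genes with the matching change, more regions of each list were shared than were not. These shares count regions, several of which can lie beside 1 gene. Since the same 2 libraries gave both the lists and the gene levels, the relation is partly built in and was not tested.

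Low level went with being listed in 1 library. An end-exon FPKM could be assigned to 371 of the 510 control-only and 436 of the 618 fasted-only regions with a strand, and its median was 1.67 and 1.60 FPKM, against 3.12 and 3.60 FPKM for shared regions. Listed at 0 FPKM were 133 control-only and 135 fasted-only regions, and also 196 shared control and 210 shared fasted regions. The highest control-only and fasted-only regions stood at 385.2 and 1477 FPKM. Below 1 FPKM, a class made up mostly of regions at 0, 159 of 387 control regions (41.1%) and 169 of 393 fasted regions (43.0%) were listed in that library only. From 1 to under 10 FPKM the figures were 166 of 523 (31.7%) and 210 of 535 (39.25%). In the fasted list the intervals of these classes, 38.2% to 47.9% and 35.2% to 43.5%, met. At 10 FPKM or more the figures were 46 of 259 (17.8%) and 57 of 292 (19.5%).

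The level of the neighbouring gene did not order the regions in the same way. By RPKM of the nearest gene in the listing library, the control-only share was 29.5% below 1 RPKM, 28.2% from 1 to under 10 RPKM and 33.3% at 10 RPKM or more. The fasted-only share rose over the same classes, from 32.6% to 35.6% to 41.1%. The highest control class rested on the titin cluster: without the regions nearest to Titin it was 178 of 599 (29.7%), and the control classes then differed by less than their intervals.

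**Figure D5:**
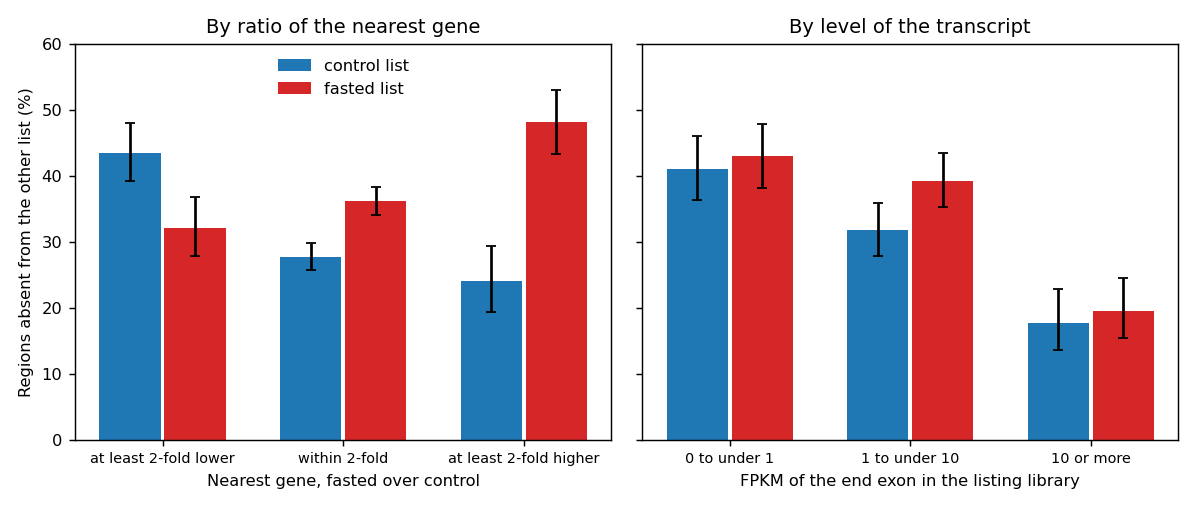
Share of each library's unannotated regions that are absent from the other list (%), by ratio class of the nearest gene (left) and by FPKM of the transcript's end exon in the listing library (right); bars are shares and whiskers 95% Wilson intervals for counting error. The control share is highest beside genes at least 2-fold lower (43.5%) and the fasted share beside genes at least 2-fold higher (48.1%), and both fall to 17.8% and 19.5% at 10 FPKM or more.

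About 1 in 5 members met the span of a transcript of the other library that gave no listed region there. A transcript of the other library, from its first to its last end exon, introns included, overlapped 244 control-only (20.9%) and 300 fasted-only regions (18.7%). For 124 control-only (10.6%) and 152 fasted-only regions (9.45%) that transcript carried an annotated gene's name and also overlapped the nearest gene. In the listing library itself such a transcript was found for 29 (2.49%) and 69 (4.29%), and for shared regions in the other library for 1.91% and 1.90%. In both of these cases the library searched had itself listed an unannotated region there. That alone makes a named transcript less likely, so these figures are not a background rate. For these members, then, a named transcript of the other library overlapped both the region and the neighbouring gene. Its name and strand were not checked against that gene. The transcript over the fasted-only region by the phosphatase PTP4A3, for example, was named zfat. The transcripts so described have a strand, and single-exon models of the other library without one were not covered by these files, so 79.1% and 81.3% with no transcript are not shown to be without reads.

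Single members showed this pattern. A control-only exon of 1780 bases matched to TET3-like (scaffold NW_011322448.1, bases 926834 to 928613) lay 394 bases upstream of the gene for TET2, at 2.98 RPKM in the control against 3.23 RPKM in the fasted library. A fasted transcript named tet1 ran from base 926445 to base 951954, over both the exon and the gene. A control-only exon of 1871 bases near TMEM178A was likewise covered by a fasted transcript of that gene, whose reads numbered 11 in the control against 151 in the fasted library. That exon was listed on the plus strand and the gene on the minus strand. In the other direction, a fasted-only region of 1566 bases matched to neuron navigator 3-like overlapped a control transcript named nav3, and that gene had 400 control and 156 fasted reads.

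Among control-only regions within 10000 bases of a gene, the lowest of the neighbours had nearly no reads in the fasted library. These neighbours and those in the next paragraphs were chosen for their ratio or level. CIDE-3, a lipid droplet protein that also marks fat cells, had 1348 reads (66.1 RPKM) in the control against 4 reads (0.203 RPKM) in the fasted library, a centred log2 ratio of reads of −8.83 (95% exact interval −10.71 to −7.47, counting error only). The control-only region near it had 1012 bases, lay 4052 bases upstream and was listed at 0 FPKM. Lathosterol oxidase, an enzyme of cholesterol synthesis, had 1454 and 19 reads, with a region of 398 bases 130 bases upstream.

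A pair of unnamed genes on scaffold NW_011325712.1 stood beside 1 control-only transcript at 4.17 FPKM. They had 893 control and 1 fasted read, and 492 control and 1 fasted read. Saxitoxin and tetrodotoxin-binding protein 1, a toxin carrier of fish plasma, had 2796 and 101 reads. Cardiac troponin T, which anchors tropomyosin on actin, stood at 334.6 RPKM in the control against 25.6 RPKM in the fasted library, and the 53-base exon 633 bases upstream of it stood at 340.5 FPKM in the control library. FPKM and RPKM came from separate files and are not compared.

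Some control-only regions lay beside genes that were far higher in the fasted library. Autophagy-related protein 9A, which supplies membrane to autophagosomes, had 349 reads (5.21 RPKM) in the control against 3454 reads (53.3 RPKM) in the fasted library, a centred log2 ratio of reads of 2.87 (2.71 to 3.04). Downstream of it, on scaffold NW_011322478.1, lay control-only exons of 55 and 2812 bases, at 1059 and 1269 bases from the gene. An unnamed fasted transcript over the gene reached the start of the longer exon, with an end exon at 35.4 FPKM, and was not in the fasted list. Myosin-XVIIIb, at 32.3 and 310.3 RPKM, and adenosylhomocysteinase 3, at 2.03 and 19.2 RPKM, also had control-only regions beside them that a fasted transcript of the same gene overlapped.

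The 26S proteasome subunit 6B, part of the engine that unfolds proteins for breakdown, had 1151 reads in the control against 7681 in the fasted library, and beside it lay a control-only exon of 78 bases at 0 FPKM. No fasted transcript overlapped that exon or the control-only region of 2463 bases beside the nucleotide hydrolase gene13239, which had 67 and 487 reads. In this group of 6, then, 4 regions met fasted transcripts and 2 did not.

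Genes high in the fasted library beside fasted-only regions are given next, as far as reported here. Muscular LMNA-interacting protein, a nuclear envelope partner of heart and skeletal muscle, had 1538 reads (21.2 RPKM) in the control against 32796 reads (467.1 RPKM) in the fasted library, a centred log2 ratio of reads of 3.98 (3.91 to 4.06). The fasted-only region of 1349 bases lay 3088 bases downstream of it. The potassium channel KCNK10 stood at 3.93 and 64.6 RPKM with a region 821 bases upstream. The span of an unnamed control transcript ran over that region and the gene. So did that of a fasted transcript with an annotated gene's name.

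A pair of genes for protein-arginine deiminase type-2, which converts arginine to citrulline in proteins, each had a fasted-only region nearby. They stood at 5.77 and 85.6 RPKM and at 10.6 and 120.5 RPKM in the control and fasted libraries. Methylthioribulose-1-phosphate dehydratase, of the methionine salvage pathway, stood at 5.07 and 64.5 RPKM, with a region of 1168 bases 2533 bases downstream.

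The reverse case occurred too. The amino acid transporter SNAT3 had 1043 reads (24.8 RPKM) in the control against 34 reads (0.836 RPKM) in the fasted library, a centred log2 ratio of reads of −5.37 (−5.91 to −4.88), and the fasted library listed a region of 898 bases 2169 bases downstream of it. A control transcript over the gene, with an end exon at 28.9 FPKM, ran over the same bases without being listed. Complement factor H stood at 13.8 and 1.01 RPKM, peptidase inhibitor 16 at 4.61 and 0.397 RPKM, and the calcium-binding proteins S100-A16 and S100-A11 at 10.7 and 1.48 RPKM and at 772.8 and 156.5 RPKM. The region beside S100-A16 also met a control transcript, at 10.8 FPKM.

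The most abundant neighbours of control-only regions were genes of filaments and energy supply. Control-only regions lay 3043 bases upstream of the main skeletal alpha-actin gene, at 115733 RPKM in the control against 55199 RPKM in the fasted library, and 2093 bases upstream of a tropomyosin alpha-1 gene at 19974 and 6335 RPKM. Others lay by adenylate kinase 1 at 6372 and 5749 RPKM and by myosin-binding protein H at 4803 and 3218 RPKM. Each was a lone exon of 327 to 953 bases without a strand, so no FPKM could be assigned.

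For the fasted-only set the list was headed by translation initiation factor eIF5A-1 at 547.9 RPKM in the control against 3286 RPKM in the fasted library, with a region of 1539 bases 580 bases upstream. A control transcript with an end exon at 43.2 FPKM ran over that region. Tropomodulin-4, which caps the thin filament, stood at 1313 and 990 RPKM, the phosphatase PTP4A3 at 300.7 and 612.8 RPKM and serine incorporator 1 at 51.9 and 551.3 RPKM. The 4 control-only neighbours were all lower in the fasted library and 3 of the 4 fasted-only neighbours were higher, on the centred scale. Adenylate kinase 1, tropomodulin-4 and PTP4A3 were within 2-fold. These genes were ranked by abundance in the listing library, a choice that favours genes higher there, so their directions support nothing.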

How the data were processed

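Total RNA of muscle was turned into TruSeq libraries for Illumina sequencing, per the labels. HTSeq, SAMtools 0.1.19, TopHat and TopHat2 2.0.12 appear in the submitters' processing notes, and the region lists name Cufflinks as their source; the genome build and strand setting are not stated in the sources used here. The authors deposited RPKM and RPM per gene, FPKM per splicing event, and, per library, positions of regions outside the annotation with protein matches, a table taken as given. The region and event tables were taken to their library by the sample title. Read counts were recovered from the deposited RPM, in which 100% of values were whole within 0.1 read.

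Regions were compared by any shared base on either strand, and distance counts the bases between a region and the nearest gene, with 0 for touching. Ratios used a pseudocount of 0.5 RPKM, which understates the change of low genes, and genes averaging at least 1 RPKM. Since 1 library stands for each group, no test was run and no spread between fish can be given; without molecular identifiers, reads are not separate molecules, and the 95% Wilson, exact Clopper-Pearson and order-statistic intervals cover counting error only. Shares count regions, which can share a transcript. Proteins were grouped by name patterns, adjusted after the matched names were seen. Named regions are the 6 longest, the 6 longest with a named match, those by the 6 highest and 6 lowest neighbours within 10000 bases, the 4 densest windows of 50000 bases, those by the 4 most abundant neighbours, and those at the edge of the rule, of which some are not reported here; matched proteins with at least 3 regions were added after seeing the data. The members and lists were chosen with earlier results of these data known. The steps were tested on simulated data. Python 3.11.15, pandas 2.3.3, numpy 2.4.6, scipy 1.17.1 and matplotlib 3.10.9 were used. Sequences are not reported, as no genome was used here.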

Additional observations from a re-analysis of the deposited data

How the results depend on the processing

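Alternatives covered the overlap that counts as shared, strand, a length minimum, the gene filter, the scaling, the pseudocount and the fold. Of 76 alternative values for 20 quantities, 55 stayed within the counting interval or, for counts of regions, within 1.5 times. Counting regions of at least 200 bases gave a protein match for 5.77% of control-only and 3.45% of fasted-only regions, and leaving out titin-like exons, added after seeing the data, gave 4.69% of control-only regions. Leaving out regions nearest to Titin, also added after seeing the data, gave 15.5% of control-only regions over 10000 bases from a gene and a control-only share of 29.7% beside genes of at least 10 RPKM. With shared defined as an overlap of at least 50%, the fasted-only median length was 432 bases. Counting distance to genes of at least 1 RPKM gave medians of 3490 and 3515 bases.

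The control-only median ratio was −0.0097 without the gene filter, 0.20 as deposited and −0.46 within 1000 bases. The fasted-only median was 0.32, 0.51 and 0.13 under the same settings and 0.12 for a mean of at least 5 RPKM. The share of higher among control-only neighbours past 2-fold, 26.3% of 186, was 53.5% without the filter, 57.4% as deposited and 13.7% at 4-fold. For fasted-only neighbours it was 55.0% of 200, and 79.0% without the filter, 80.7% as deposited and 64.4% within 1000 bases. As deposited, the centring value of 0.48 is left out for every gene, which moves both medians equally, so their order there was fixed. Without the filter, both the centring and the genes counted changed. The cause of the other moves was not tested. In each of these settings the fasted-only value lay above the control-only value computed the same way. No paired analysis was possible because each group has 1 library. With 1 library per group the lists cannot tell fasting from differences between fish, and no alternative varied depth. Below 1 FPKM, 41.1% of control and 43.0% of fasted regions with an FPKM were in 1 list only.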
